A study of Mus musculus with 8 samples.

Results

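The genes described here are 33 genes of the amino acid response and of the endoplasmic reticulum (ER) stress response, chosen by name as ATF4 targets, serine synthesis genes and unfolded protein response genes. All 33 were measured, among 12393 genes in all, on arrays of Snf5-deficient T cell lymphoma cells of the mouse. Snf5 belongs to SWI/SNF, a complex that moves nucleosomes along DNA. The study compared 2 subpopulations purified from these stable lines, cells high in CD44 (CD44hi, 4 arrays) and cells low in CD44 (CD44lo, 4 arrays), numbered 1 to 4 in each group. CD44 is a surface receptor for hyaluronan that marks memory T cells. Both groups carry the Snf5 deficiency, and the labels give no treatment, time point, number of lines, deleting Cre or age. They do not say that the 4 arrays of a group came from separate cultures, so each p-value is set against the spread of the arrays alone, and this spread may be technical.

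Cells meet a lack of amino acids or a load of unfolded protein in the ER with related programmes. Kinases that sense either state phosphorylate the initiation factor eIF2, which lowers general protein synthesis and favours translation of the transcription factor ATF4. ATF4 then binds composite C/EBP-ATF elements in genes for further regulators, amino acid enzymes, transporters and aminoacyl-tRNA synthetases. In the ER arm, spliced XBP1 and cleaved ATF6 act on ER stress elements in the genes of chaperones and of ER-associated degradation, which removes misfolded protein. Lymphocytes draw on both programmes when they grow and synthesise protein rapidly.

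The promoters of the members were searched for the sequence elements of both arms. RefSeq promoters (GRCm38.p6, 250 bases before to 50 after the start) were found for 30 of the 33 genes, and both strands were searched. The composite element TGATGNAA lay in 3.97% of all 32851 promoters and in those of 7 members, Asns, Atf3, Chac1, Herpud1, Nupr1, Trib3 and Vldlr. The ER stress element, CCAAT and CCACG with 9 free bases between them, lay in 0.119% of all promoters and in those of 6 members, Calr, Canx, Creld2, Hsp90b1, Hspa5 and Pdia6, all of them ER chaperones or their partners. The second form of the ER stress element, ATTGG and CCACG with 1 free base between them, lay in 0.0365% of promoters and in that of Herpud1. The UPR element TGACGTGG lay in 0.676% of promoters and in 0 of the 30. The last 3 motifs share CCACG, on 1 strand or the other, but no matches overlapped within a member. A match describes letters and does not show binding.

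The windows below come from members that hold a match, with the motif in capitals, written 5′ to 3′ on the strand of the gene. Ddit3, Atf5, Ppp1r15a and Mthfd2, described below, held no match, and Cth had no promoter entry. The first 6 windows hold the composite element, which in Atf3, Chac1, Trib3, Nupr1 and Herpud1 reads on the opposite strand. They lie at chr1:191183391-191183488 (minus strand), chr2:119351004-119351101 (plus), chr2:152344033-152344091 (minus), chr6:7693182-7693277 (minus), chr7:126625528-126625625 (minus) and chr8:94386272-94386369 (plus), in the order printed.
Atf3: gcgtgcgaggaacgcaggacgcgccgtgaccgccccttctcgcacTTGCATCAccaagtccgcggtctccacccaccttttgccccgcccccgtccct
Chac1: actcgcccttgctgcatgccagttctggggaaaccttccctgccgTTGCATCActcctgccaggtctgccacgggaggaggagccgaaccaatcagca
Trib3: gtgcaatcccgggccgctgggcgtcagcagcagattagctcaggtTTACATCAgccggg
Asns: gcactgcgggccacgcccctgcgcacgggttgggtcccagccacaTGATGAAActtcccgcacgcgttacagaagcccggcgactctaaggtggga
Nupr1: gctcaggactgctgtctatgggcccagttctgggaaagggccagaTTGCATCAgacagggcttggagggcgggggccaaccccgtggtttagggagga
Herpud1: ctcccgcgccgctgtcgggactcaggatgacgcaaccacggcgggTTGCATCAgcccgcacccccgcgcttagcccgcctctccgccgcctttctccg

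The same 8 letters, TTGCATCA, stood in Atf3, Chac1, Nupr1 and Herpud1, while Trib3 and Asns differed from them inside the match. In Trib3 the match began 15 bases after the annotated start, and in Asns 23 bases before it. The ER stress element is shown for 3 chaperone genes at chr2:34771980-34772088 (plus), chr12:17266446-17266554 (plus) and chr15:88819475-88819583 (plus), in the order printed, and in Creld2 it reads on the opposite strand.
Hspa5: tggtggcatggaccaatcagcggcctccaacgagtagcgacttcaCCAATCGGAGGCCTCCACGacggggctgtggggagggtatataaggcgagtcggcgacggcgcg
Pdia6: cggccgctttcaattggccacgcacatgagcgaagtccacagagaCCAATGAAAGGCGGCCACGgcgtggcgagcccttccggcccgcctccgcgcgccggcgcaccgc
Creld2: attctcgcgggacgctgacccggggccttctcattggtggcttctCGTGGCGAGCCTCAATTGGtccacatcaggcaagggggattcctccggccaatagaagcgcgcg

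**Figure D1:**
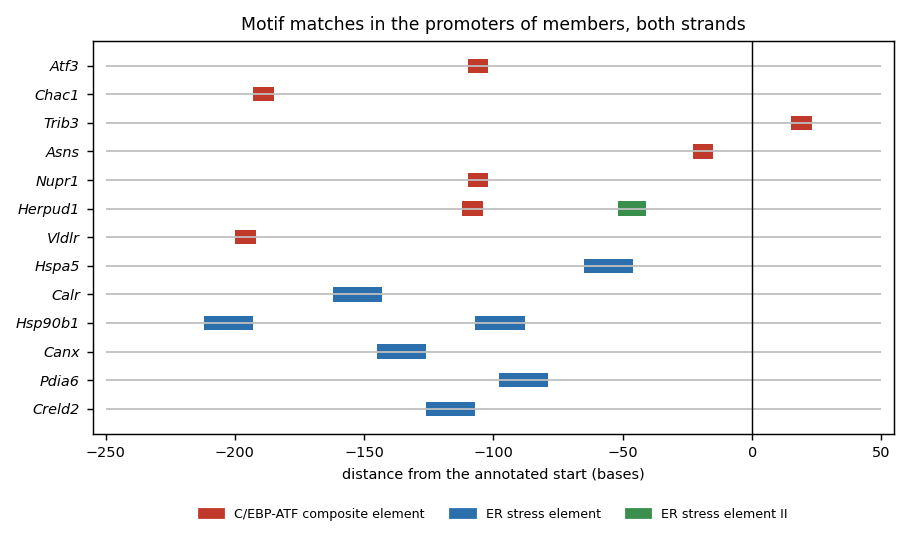
Position of each motif match in the promoters of the 13 members that hold one, as the distance in bases from the annotated start (0, vertical line). Red bars are composite elements, blue bars ER stress elements and the green bar its second form; only Herpud1 carries more than 1 kind.

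Before the members, the arrays themselves need a description, because they fell into 2 sets that the group labels do not name. In both groups the arrays numbered 1 and 3 lay close together and the arrays numbered 2 and 4 lay apart from them. Over the members, the root mean square difference between arrays 1 and 3 was 0.137 in CD44hi and 0.128 in CD44lo on the log2 scale, between arrays 2 and 4 it was 0.467 and 0.193, and between arrays 1 and 2 it was 0.626 and 0.569. The labels do not say what a replicate number stands for and name no batch. Since the split into 1 and 3 against 2 and 4 was known from these arrays, its p-values describe the sets and are not independent evidence for them. Cd44 matched the labels in every array, with log2 intensities of 11.20 to 11.73 in CD44hi against 4.92 to 5.94 in CD44lo. The T cell genes Cd3e, Cd3d, Cd3g, Cd247, Cd8a and Cd8b1 stood at 12.76 or more in all 8 arrays, whereas the probe sets of Thy1 and Cd2 lay at 4.34 to 4.61 and 5.49 to 6.10, near the highest signal of a bacterial control probe set, 5.86. B cell markers averaged under 6 for 5 of 5 genes, and stromal markers for 4 of 5.

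No member passed the test between CD44hi and CD44lo over all 8 arrays (0 of 33 genes at a Benjamini-Hochberg adjusted p under 0.05 in limma, a linear model with a pooled estimate of the spread, beside 3.81% of all genes). At an unadjusted p under 0.05 there were 4 members, Nupr1, Sesn2, Cth and Edem1, beside 12.6% of all genes. Of the 33 differences 16 were positive and 17 negative, from -0.68 for Edem1 to 0.43 for Sesn2. Chac1, Sesn2 and Edem1 passed once each CD44hi array was compared with the CD44lo array of the same number. With this replicate block, 6.19% of all genes passed. None of the 3 passed when arrays 1 and 3 and arrays 2 and 4 of each group were averaged and the number set was the block (limma adjusted p 0.15, 0.16 and 0.166).

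Among the regulators, Nupr1, a small stress-induced chromatin protein, had the smallest adjusted p in this comparison, 0.088. Its log2 intensity was 13.75, 13.59, 13.72 and 13.69 in CD44hi arrays 1 to 4 and 13.95, 14.42, 13.94 and 14.36 in CD44lo arrays 1 to 4. The groups did not overlap, which held for 2 of 33 members and for 10.3% of all genes. The difference was 0.48 toward CD44lo (95% interval 0.19 to 0.76) and the second probe set of the gene gave -0.69 for CD44hi minus CD44lo.

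Sesn2, a leucine sensor that restrains mTORC1, was the other member without overlap. It measured 9.56, 9.94, 9.47 and 9.80 in CD44hi and 9.31, 9.29, 9.05 and 9.41 in CD44lo. Its difference of 0.43 (95% interval 0.14 to 0.71) had an adjusted p of 0.13 in limma without the block and 0.0355 with it. A second, dimmer probe set of Sesn2 gave 0.20.

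Chac1, which degrades glutathione and is a marker of ATF4 activity, was higher in CD44hi in each of the 4 same-number pairs. Its values were 9.73, 10.85, 9.73 and 10.99 in CD44hi and 9.40, 10.50, 9.27 and 10.53 in CD44lo, so the groups overlapped while every pair differed in 1 direction. The difference of 0.40 had a standard error of 0.40 and an adjusted p of 0.831 in limma, which became 0.07 and 0.0188 with the replicate block. The other regulators did not pass in either fit: Atf4 differed by 0.06 (95% interval -0.11 to 0.23), Ddit3 by 0.18 (-0.91 to 1.27) and Trib3 by 0.08 (-0.89 to 1.05). These intervals come from the fit without the block, which counts the difference between number sets as spread. With the block they were 0.01 to 0.35 for Ddit3 (limma adjusted p 0.232) and -0.16 to 0.32 for Trib3 (0.742).

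Edem1 directs misfolded glycoproteins to degradation and moved the other way. CD44hi arrays 1 to 4 gave 10.07, 9.02, 10.27 and 9.26 and CD44lo arrays gave 10.55, 10.12, 10.53 and 10.16, lower in CD44hi in all 4 pairs. The difference was 0.68 toward CD44lo (95% interval 0.06 to 1.30), with an adjusted p of 0.321 in limma and 0.0445 with the replicate block. The remaining degradation genes, Herpud1 and Sel1l, differed by 0.32 (-0.19 to 0.83) and 0.24 (-0.04 to 0.52).

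**Figure D2:**
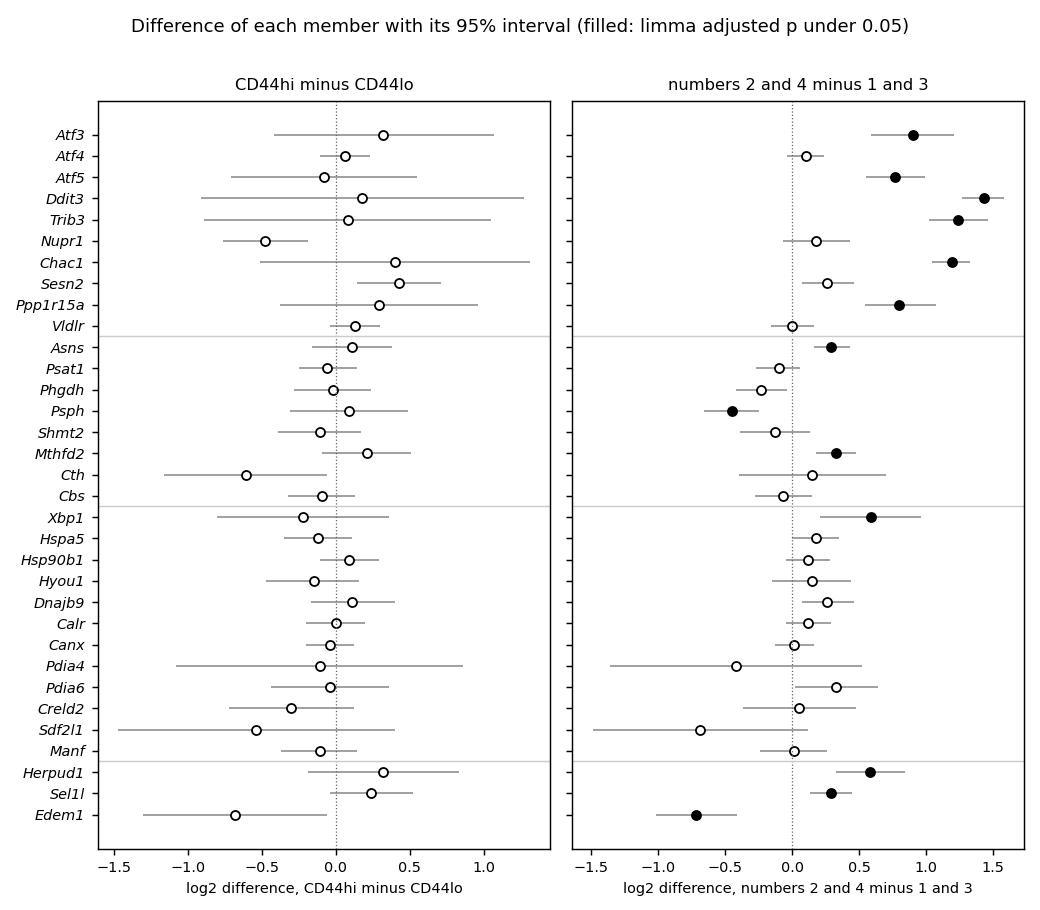
Log2 difference of each of the 33 members with its 95% interval, CD44hi minus CD44lo on the left and numbers 2 and 4 minus 1 and 3 on the right; filled points passed at an adjusted p under 0.05, and grey lines separate regulators, enzymes, ER chaperones with Xbp1, and degradation genes from top to bottom. No point is filled on the left; 13 are filled on the right, where Ddit3 reaches 1.43.

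The larger differences among the members followed the replicate number. Of the 33 genes, 11 were higher in numbers 2 and 4, beside 13.9% of all genes, and 2 were lower, beside 11.5% (limma with the CD44 group as covariate, adjusted p under 0.05). Of the 11 higher members 5 held the composite element in the promoter window and 0 the first form of the ER stress element. Of the 30 members with a promoter entry 7 held the composite element, beside 4.51% of genes, and 6 the ER stress element, beside 0.137%. The members were chosen by name as genes of these programmes, and a link between element and difference was not tested. The median member was 0.15 higher in numbers 2 and 4 and the median gene 0.01 higher. After median centring the median member was 0.08 higher and the median gene differed by -0.06, with 21 of 33 members positive rather than 24. All 13 calls stood when the 2 arrays of a number were averaged and 2 numbers were compared with 2, an alternative chosen after seeing the data.

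The regulators carried the largest of these differences, with 6 of 10 higher in numbers 2 and 4 and a median of 0.79. Ddit3, the transcription factor CHOP that acts downstream of ATF4, measured 10.78, 12.27, 10.85 and 12.37 in CD44hi arrays 1 to 4 and 10.71, 12.01, 10.72 and 12.12 in CD44lo. Arrays 2 and 4 were above arrays 1 and 3 in both groups with no overlap. In this direction 10 of the 33 members did not overlap, beside 13.1% of all genes. In the other direction it was 1 member, beside 12.3%. The difference was 1.43 (SE 0.07), 2.69-fold, with a limma adjusted p of 2.25e-05.

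Trib3, a pseudokinase induced by ATF4 and CHOP, showed the same order. Its values were 9.52, 10.92, 9.82 and 11.16 in CD44hi and 9.74, 10.85, 9.71 and 10.82 in CD44lo. It was 1.24 higher in numbers 2 and 4 (SE 0.10, limma adjusted p 1.76e-04), and its second probe set gave -1.21 for numbers 1 and 3 minus 2 and 4. Chac1, whose arrays are listed above, was 1.19 higher (SE 0.06, 5.05e-05), by 1.19 within CD44hi and 1.18 within CD44lo.

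Atf3, a transcription factor of acute stress, measured 5.83, 7.25, 6.02 and 7.02 in CD44hi and 5.85, 6.57, 5.98 and 6.43 in CD44lo. Numbers 2 and 4 were higher in both groups, by 1.21 in CD44hi and 0.58 in CD44lo, and by 0.90 over both (SE 0.13, limma adjusted p 0.00232). Its values in numbers 1 and 3 lay near the brightest bacterial control value, 5.86. The array medians of these controls were lower, at 3.95 to 4.12. Ppp1r15a, the phosphatase subunit GADD34 that reverses eIF2 phosphorylation, measured 9.88, 10.98, 9.98 and 11.06 in CD44hi and 9.93, 10.37, 9.93 and 10.52 in CD44lo. It was 0.80 higher in numbers 2 and 4 (SE 0.12, 0.00208), by 1.09 in CD44hi and 0.52 in CD44lo.

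Atf5, a relative of ATF4 under the same translational control, measured 8.29, 8.82, 8.28 and 8.85 in CD44hi and 8.10, 9.21, 8.18 and 9.06 in CD44lo. Here the larger step was in CD44lo, 0.99 against 0.55 in CD44hi, and 0.77 over both groups (SE 0.10, limma adjusted p 0.00117). The change of these steps between the groups did not pass the test for Atf3, Ppp1r15a or Atf5. Atf4 itself, whose product is controlled mainly at translation, lay between 13.61 and 13.82 in all 8 arrays, with a difference of 0.10 (95% interval -0.04 to 0.24). Of the other regulators, Sesn2 was 0.26 higher (limma adjusted p 0.0512) and Nupr1 0.18 higher (0.294). Vldlr, a lipoprotein receptor, averaged 4.78, under the brightest bacterial control value.

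**Figure D3:**
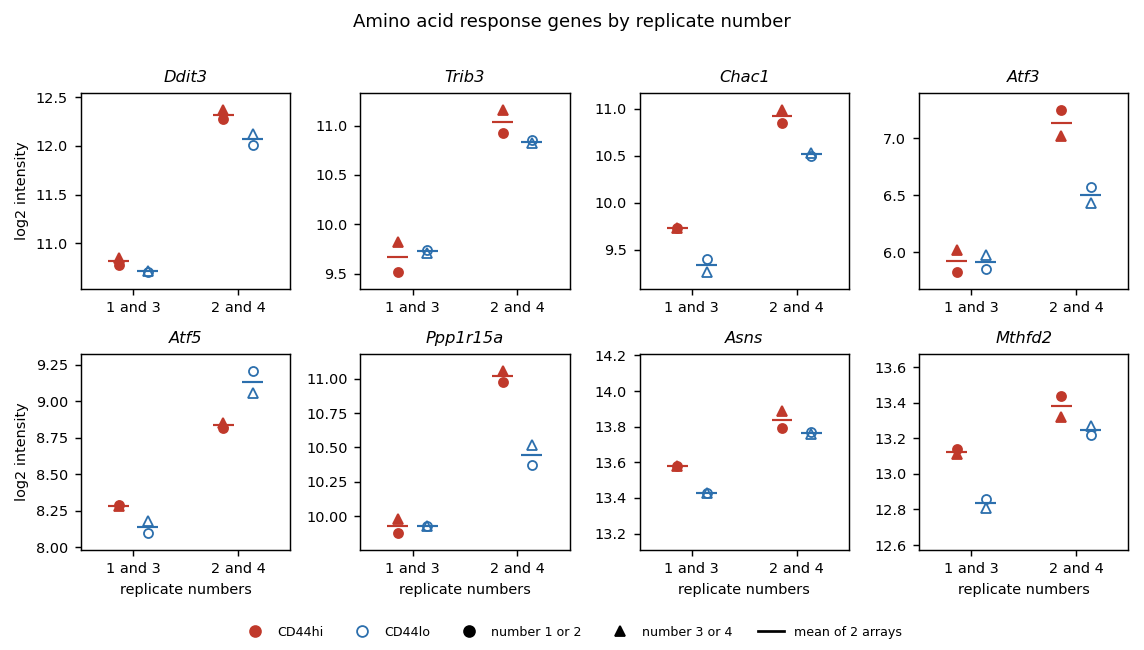
Log2 intensity of 8 amino acid response genes in each array, by replicate number on the horizontal axis; red filled points are CD44hi, blue open points CD44lo, circles number 1 or 2, triangles number 3 or 4, and bars the mean of 2 arrays. In all 8 panels the arrays numbered 2 and 4 lie above those numbered 1 and 3, by 1.43 on average for Ddit3 and 0.29 for Asns; each panel has its own axis range of at least 1 log2 unit.

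The enzymes split. Asns, which makes asparagine, measured 13.58, 13.79, 13.58 and 13.89 in CD44hi and 13.43, 13.77, 13.43 and 13.76 in CD44lo. Mthfd2, a mitochondrial folate enzyme of one-carbon metabolism, measured 13.14, 13.44, 13.11 and 13.32 in CD44hi and 12.86, 13.22, 12.81 and 13.27 in CD44lo. Both were higher in numbers 2 and 4 without overlap, as were 13.1% of all genes. The difference was 0.29 for Asns (SE 0.06, limma adjusted p 0.00753) and 0.33 for Mthfd2 (SE 0.06, 0.00696). A second probe set of each gave the same direction.

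Psph, the phosphatase of the last step of serine synthesis, went the other way: it measured 12.24, 11.73, 12.33 and 11.57 in CD44hi and 12.06, 11.76, 11.98 and 11.73 in CD44lo. It was 0.45 higher in numbers 1 and 3 (SE 0.09, limma adjusted p 0.00708). The earlier steps did not pass: Phgdh differed by -0.23 (95% interval -0.42 to -0.04) and Psat1 by -0.10 (-0.27 to 0.06) for numbers 2 and 4 minus 1 and 3. Phgdh did pass in 5 of 18 alternatives, among them median centring and the random replicate block, and Psat1 in 0. All 4 probe sets of Phgdh were higher in numbers 1 and 3, a dimmer one by 0.41 (limma adjusted p 0.027 with every probe set tested). Shmt2, which turns serine to glycine, differed by -0.13 and Cbs, which commits homocysteine to cysteine synthesis, by -0.07.

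In the chaperone arm 1 of 12 genes passed between the number sets. Xbp1, the transcription factor of the IRE1 branch, measured 10.46, 10.96, 10.36 and 10.36 in CD44hi and 10.32, 11.20, 10.27 and 11.23 in CD44lo. It was 0.59 higher in numbers 2 and 4 (SE 0.16, limma adjusted p 0.0311), a call lost without CD44hi array 2 or 3 or any 1 of the CD44lo arrays, and after median centring. All 4 of its probe sets gave this direction. In the probe set used, CD44hi array 4 stayed at the level of arrays 1 and 3, whereas CD44hi array 2 and CD44lo arrays 2 and 4 stood above them. In 1 of the other probe sets CD44hi measured 9.81, 10.28, 9.78 and 10.14, with array 4 above arrays 1 and 3. The remaining ones read like the first. The 11 chaperones did not pass over all arrays: Hspa5 (BiP), the main ER chaperone of the HSP70 family, differed by 0.18 (95% interval 0.00 to 0.35), and Hsp90b1 by 0.12 (-0.05 to 0.28). Dnajb9, an HSP70 cochaperone, was 0.26 higher in numbers 2 and 4 (limma adjusted p 0.0569). Its sets did not overlap, which held for 13.1% of all genes in this direction. The lectin chaperones Calr and Canx differed by 0.12 and 0.01, Hyou1 by 0.15, Creld2 by 0.05 and Manf by 0.01. With every probe set tested, a dimmer one of Canx gave -0.34 for numbers 1 and 3 minus 2 and 4 (limma adjusted p 0.0232). Another of Canx gave 0.16 (0.565). Pdia6 differed by 0.33 (limma adjusted p 0.112). Sdf2l1 and Pdia4 went the other way, higher in numbers 1 and 3 by 0.69 (0.203) and 0.42 (0.524). Of the 12 genes 10 had a positive difference toward numbers 2 and 4, and 7 after median centring.

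Herpud1, a membrane scaffold of ER-associated degradation whose promoter carried both kinds of element, measured 11.84, 12.47, 11.93 and 12.09 in CD44hi and 11.42, 12.21, 11.33 and 12.08 in CD44lo. It was 0.58 higher in numbers 2 and 4 (SE 0.11, limma adjusted p 0.00614), with a second probe set in the same direction. Sel1l, the adaptor of the HRD1 ligase, measured 10.69, 10.85, 10.49 and 10.76 in CD44hi and 10.27, 10.65, 10.28 and 10.63 in CD44lo. Its arrays overlapped between the sets across both groups but not within a group. The difference was 0.29 (SE 0.07, 0.018) and was lost without CD44hi array 3 or any 1 CD44lo array, after median centring, and when all probe sets of a gene were averaged. Edem1 was 0.72 higher in numbers 1 and 3 (SE 0.13, 0.00542), against the direction of the other degradation genes, and its second probe set gave 0.29, which did not pass.

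Within each CD44 group the number sets were compared over 2 arrays against 2. In CD44hi 6 members were higher in numbers 2 and 4, all of them regulators, beside 6.5% of all genes. In CD44lo 16 members were higher in numbers 2 and 4, beside 8.08% of all genes. Higher in numbers 1 and 3 were Edem1 and Psph in CD44hi, beside 6.37% of all genes, and Edem1 in CD44lo, beside 5.85%. The second probe set of Edem1 measured 10.03, 10.28, 10.12 and 10.09 in CD44lo arrays 1 to 4, without numbers 1 and 3 above 2 and 4. The 16 included the 6 regulators called in CD44hi, and also Asns, Mthfd2, Cth, Xbp1, Hspa5, Pdia6, Creld2, Herpud1, Sel1l and Nupr1. A call in 1 group alone does not show that the groups differ, which the next comparison tests.

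The CD44 difference was also compared between the number sets. For 3 members, Cth, Creld2 and Pdia6, this difference changed between sets, beside 1.52% of all genes (interaction term in limma, adjusted p under 0.05). In all 3, CD44hi minus CD44lo was positive in numbers 1 and 3, and negative and larger in size in numbers 2 and 4. With the replicate block 0 of 33 members and 12 genes in all passed, and the 3 calls were also lost without CD44hi array 1 or 3 or any 1 CD44lo array. They were kept without CD44hi array 2 or 4. In the block fit the number sets rest on 4 pairs of arrays.

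Cth, the enzyme that releases cysteine from cystathionine, measured 10.77, 10.42, 10.69 and 10.03 in CD44hi and 10.73, 11.54, 10.64 and 11.42 in CD44lo. The groups lay together in numbers 1 and 3, and stood apart in numbers 2 and 4. CD44lo was 1.26 higher in numbers 2 and 4 (SE 0.16, limma adjusted p 0.0126 in those 4 arrays), and the CD44 difference in numbers 1 and 3 was 0.04. The change between the sets was 1.30 (SE 0.19, 0.0294).

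Creld2, an ER protein induced by ER stress, measured 12.15, 11.69, 12.28 and 11.82 in CD44hi and 12.01, 12.56, 12.01 and 12.58 in CD44lo. CD44hi was the higher group in numbers 1 and 3 and the lower one in numbers 2 and 4. The difference was 0.21 in the first set and 0.82 toward CD44lo in the second (limma adjusted p 0.208 and 0.0175), a change of 1.02 (SE 0.12, 0.0181).

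Pdia6, a protein disulfide isomerase, measured 11.06, 11.02, 11.08 and 11.07 in CD44hi and 10.77, 11.50, 10.73 and 11.39 in CD44lo. The CD44hi arrays all stood at a similar level, below CD44lo arrays 2 and 4 and above CD44lo arrays 1 and 3. The change between the sets was 0.72 (SE 0.11, limma adjusted p 0.0362), lost when all probe sets of a gene were averaged.

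**Figure D4:**
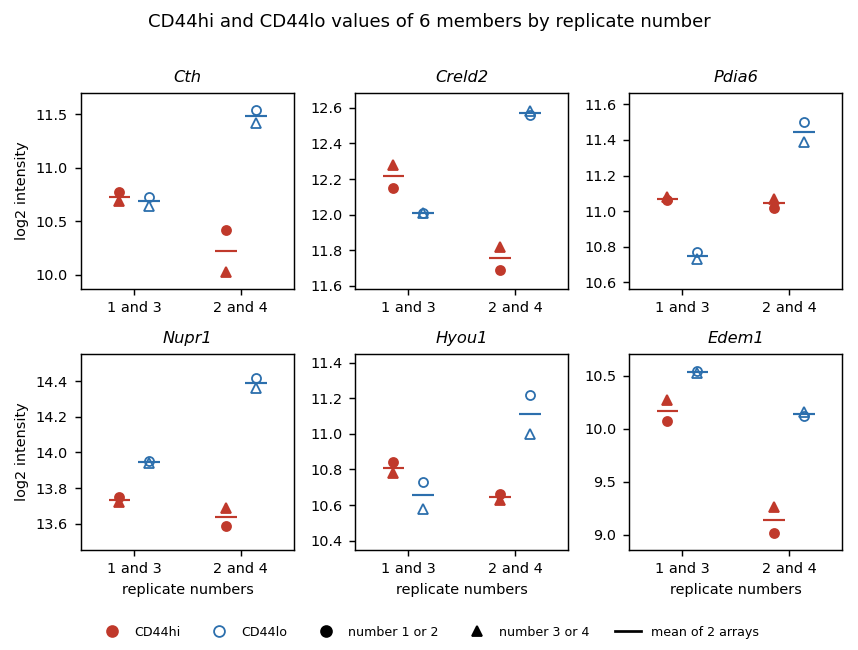
Log2 intensity of Cth, Creld2, Pdia6, Nupr1, Hyou1 and Edem1 in each array by replicate number; red filled points are CD44hi, blue open points CD44lo, circles number 1 or 2, triangles number 3 or 4, and bars the mean of 2 arrays. In all 6 panels CD44lo lies above CD44hi in numbers 2 and 4, by 1.26 for Cth; each panel has its own axis range of at least 1 log2 unit.

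The other chaperones had differences of like sign without passing. In numbers 1 and 3 all 12 genes of the chaperone arm had a positive CD44hi minus CD44lo difference (median 0.13), and in numbers 2 and 4 10 of the 12 had a negative one (median -0.38). Over all genes 51% were positive in numbers 1 and 3 and 49.9% in numbers 2 and 4, and the counts for the 12 genes were the same after median centring. Of the 33 members 17 were positive in the first set and negative in the second (51.5%), as were 21.6% of all genes. Examples are Hyou1, an ER chaperone of the HSP110 family, at 0.16 and -0.46, Manf, a secreted ER stress protein, at 0.14 and -0.37, and Hspa5 at 0.03 and -0.26. Of the 8 enzymes 7 were positive in numbers 1 and 3 (median 0.14) and 6 negative in numbers 2 and 4 (median -0.13), 5 after median centring. The regulators had medians of 0.12 and 0.23, with Atf5 at 0.14 and -0.30, and no test compared the roles.

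In numbers 2 and 4 alone 4 members were lower in CD44hi, beside 2.15% of all genes: Cth and Creld2 as above, Edem1 by 1.00 (limma adjusted p 0.013) and Nupr1 by 0.75 (0.0222). In numbers 1 and 3 alone 2 were higher in CD44hi, beside 3.41% of all genes: Herpud1 by 0.51 (0.0276) and Chac1 by 0.40 (0.0497). Chac1 differed by the same 0.40 in numbers 2 and 4, where its adjusted p was 0.137.

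Sdf2l1 and Pdia4, both partners of BiP, stood apart in 1 array. Sdf2l1 measured 11.00, 10.17, 10.60 and 8.78 in CD44hi and 10.89, 10.88, 10.50 and 10.41 in CD44lo. Pdia4 measured 10.70, 10.70, 10.52 and 8.71 in CD44hi and 10.39, 10.70, 10.09 and 9.90 in CD44lo. CD44hi array 4 was the lowest for both genes, and neither passed a test in any of the 3 comparisons.

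**Figure D5:**
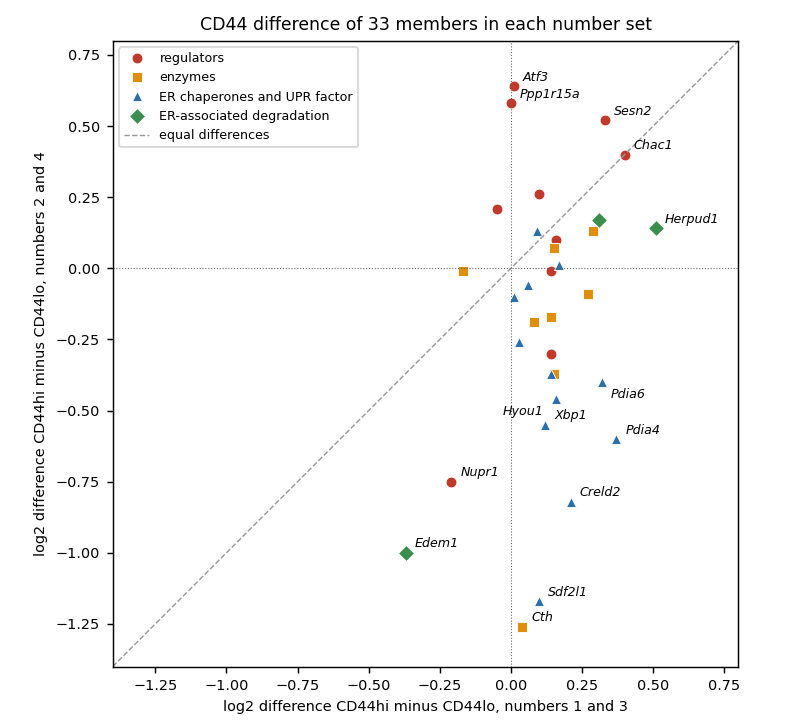
CD44hi minus CD44lo difference of the 33 members in numbers 1 and 3 (horizontal axis) and in numbers 2 and 4 (vertical axis), both in log2 units, with symbols by role and a dashed line of equal differences. The blue triangles of the chaperone arm lie right of 0 and mostly below it, and Cth lies lowest, at 0.04 and -1.26.

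The wider pathways were described with 7 further lists, of which 89 of 103 genes were measured. Between CD44hi and CD44lo 0 of the 89 passed in limma without the block, beside 3.81% of all genes, and 8 had an unadjusted p under 0.05, beside 12.6%. With the replicate block 2 were higher and 2 lower (2.25% each), beside 3.08% and 3.11% of all genes: Eif2ak3 (PERK), the ER-resident eIF2 kinase, was 0.57 higher in CD44hi (adjusted p 0.00633) and the arginine transporter gene Slc7a3 0.42 higher (0.0183), while Atf6 was lower in CD44hi by 0.39 (0.0473) and Bcat2, a branched-chain aminotransferase, by 0.38 (0.0328). None of these 4 passed when arrays 1 and 3 and arrays 2 and 4 of each group were averaged (limma adjusted p 0.0759 for Eif2ak3, 0.15 for Slc7a3, 0.164 for Atf6 and 0.173 for Bcat2).

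By number, 23 of the 89 genes (25.8%) were higher in numbers 2 and 4, beside 13.9% of all genes, and 14 (15.7%) were lower, beside 11.5%. Of the aminoacyl-tRNA synthetases, which charge tRNAs, 8 of 18 were higher and 1 was lower, with Sars 0.46 higher (limma adjusted p 0.00121), Aars 0.44, Lars 0.36 and Iars 0.33. Of the amino acid transporters 4 of 11 were higher and 2 lower. Slc1a4, a carrier of serine and alanine, was 0.75 higher (3.80e-04), Slc3a2, the heavy chain shared by several exchangers, 0.50 higher and Slc38a2 0.32 higher, whereas Slc38a1 was 0.25 lower.

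Of the other amino acid enzymes 2 of 11 were higher and 3 lower, with Gpt2, a mitochondrial alanine aminotransferase, 0.83 higher (limma adjusted p 1.76e-04) and Shmt1, the cytosolic serine hydroxymethyltransferase, 0.75 higher in numbers 1 and 3 (0.00768). Of 7 other ATF4 targets Vegfa was 0.96 higher in numbers 2 and 4 (1.75e-04), Ddit4, an mTORC1 inhibitor, 0.56 higher, and Map1lc3b 0.26 higher in numbers 1 and 3, a direction that turned when all its probe sets were averaged. Of the sensors and kinases 1 of 12 was higher, Cebpg, a dimer partner of ATF4, by 0.41 (0.0028), and 1 was lower, Eif2ak2 (PKR), by 0.97 (4.47e-04).

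The ER lists went both ways. Of 17 other ER folding genes 2 were higher in numbers 2 and 4 and 5 lower, among them Sil1 (0.52 higher), Ero1a (0.37 higher), Sec61b (0.32 lower) and Ssr1 (0.31 lower). Of 13 other degradation genes 4 were higher, Derl3 by 0.57, Os9 by 0.47, Edem3 by 0.34 and Derl1 by 0.26, and 1 was lower. No list was tested as a set.

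Some measures of RNA and of other cell types moved with the groups compared. For Actb, the log2 signal of the 3′ control probe set minus that of the 5′ one, which rises as RNA degrades or is copied less far, was 0.456 ± 0.063 in numbers 1 and 3 and 0.668 ± 0.105 in numbers 2 and 4 (SD, n = 4 each, two-sided exact permutation p 0.0286, the smallest that 70 assignments allow). The same measure for Gapdh was 0.760 ± 0.068 and 0.752 ± 0.095 in the 2 sets (exact permutation p 0.886, n = 4). Between the CD44 groups it was Gapdh that differed, with 0.816 ± 0.052 in CD44hi against 0.696 ± 0.036 in CD44lo (exact permutation p 0.0286, n = 4), and Actb less so (exact permutation p 0.229). The part of RNA quality in the results above was not tested.

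Cd68, a lysosomal protein listed as a myeloid marker, was 1.85 higher in numbers 2 and 4 (limma adjusted p 1.03e-04), while the other 5 myeloid markers measured, Lyz2, Csf1r, Itgam, Adgre1 and Cd14, averaged under 6. The mean of the 6 plasma cell genes, a cell type with a strong ER programme, was 8.19 to 8.35 in numbers 1 and 3 and 8.40 to 8.73 in numbers 2 and 4. Prdm1 and Derl3 passed in that list by number, and Derl3 is also among the degradation genes above. Derl3 was also 0.71 higher in CD44lo within numbers 2 and 4 (limma adjusted p 0.03). Irf4, the brightest gene of the list, stood at 13.74 to 13.78 in all 8 arrays. Sdc1 did not pass by number over both groups (limma adjusted p 0.326), and Jchain and Tnfrsf17 averaged under 6. Within CD44lo alone Sdc1 was 0.57 higher in numbers 2 and 4 (limma adjusted p 0.0356). There 3 of the 6 genes were higher in numbers 2 and 4, beside 8.08% of all genes, and within CD44hi 0, beside 6.5%. The B cell gene Ms4a1 was 1.31 higher in CD44hi over all arrays (limma adjusted p 0.0961), by 0.65 within numbers 1 and 3 (0.0178) and 1.98 within numbers 2 and 4 (0.0172), at 3.44 to 6.01 log2 intensity. The other B cell genes measured did not pass between CD44hi and CD44lo (limma adjusted p 0.588 to 0.931). Cd79a differed by -0.18, Cd79b by 0.21, Pax5 by 0.07 and Blk by -0.06. The mean of the 8 T cell genes was 11.44 to 11.47 and 11.45 to 11.50. These are bulk arrays, so fewer cells of a type and less RNA per cell cannot be told apart, and the part of other cells in the differences above was not tested.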

How the data were processed

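The authors' deposited values are probe set intensities of Affymetrix Mouse 430A 2.0 arrays, made per the labels' protocols by RMA, Robust Multichip Average (background correction, normalization and probe summary); its version is not given in the sources used here. The values run from 7.61 to 36128, which is a linear scale, and were put on the log2 scale without a pseudocount. Array medians were 320.3 to 339.1, and 8 arrays limit the precision. Of 22690 probe sets, 20380 have 1 gene symbol, 691 several, 1555 none and 64 are controls; the probe set with the highest mean stood for each of 12393 genes. RMA shrinks differences near background.

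Groups came from the titles. The 3 comparisons were fitted with limma 3.58.1 (R 4.3.3) over all genes, with Benjamini-Hochberg adjustment at 0.05: CD44hi against CD44lo, numbers 1 and 3 against 2 and 4 with the group as covariate, and their interaction. The scripts were tested on simulated data. Members and lists were chosen with earlier results of these data known. All members are reported, and of each further list up to 4 genes with the smallest p in each of the first 2 comparisons.

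Same-numbered arrays deviated together from their group means (correlations 0.574, 0.404, 0.533 and 0.531 for numbers 1 to 4). Arrays of unlike number in the same set also did (0.372 to 0.521). The main CD44 fit held no block, and arrays of 1 number were treated as pairs only in the fit with the replicate block. The alternatives were scaling, probe set choice, a filter on dim genes, variance models, array weights, blocks, subsets of arrays and leaving out each array.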

Additional observations from a re-analysis of the deposited data

Results flagged for a closer look

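In 4 genes the CD44 difference in numbers 1 and 3 and that in numbers 2 and 4 differed by the interaction test in limma (adjusted p under 0.05): Creld2 by 1.02 (0.0181), Cth by 1.30 (0.0294), Pdia6 by 0.72 (0.0362) and, among the further lists, Shmt1 by 0.79 (0.0381). None of the 3 members passed with the replicate block.

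Of 162 groups of 4 arrays examined over the named genes, 7 held an array whose gap to the nearest other array took more of the group's range than Dixon's 95% critical value; chance flags about 1 in 20 such groups. Pdia4 in CD44hi array 4 was at 8.71 (the others 10.52 to 10.70). Xbp1 in CD44hi array 2 was at 10.96 (10.36 to 10.46), and Shmt2 in CD44lo array 3 at 12.14 (12.36 to 12.40). Vldlr in CD44hi array 2 was at 4.80 (others 4.86), near background. Atf6 in CD44lo array 1 was at 9.85 (10.06 to 10.10), Nfe2l2 in CD44hi array 4 at 8.50 (8.86 to 8.91) and Slc1a5 in CD44hi array 2 at 9.86 (10.39 to 10.48).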

How the results depend on the processing

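The replicate block moved the members called between CD44hi and CD44lo from 0 to 2 higher and 1 lower, the genes called from 472 to 767, the members with a changed CD44 difference from 3 to 0 and such genes from 188 to 12. For the number sets a fixed block was not possible because each number lies in 1 set; with a random block all 13 member calls were kept.

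For CD44hi against CD44lo, numbers 1 and 3 alone gave 2 members higher and 872 genes, numbers 2 and 4 alone 4 members lower, a trended robust variance 1 member lower (Nupr1), the filter on dim genes 215 genes, array weights 821 and averaged arrays 283, with 0 members higher and 0 lower. Leaving out each array gave 0 members and 305 to 456 genes, the fewest without CD44lo array 4. For the number sets, CD44hi alone gave 6 members higher in numbers 2 and 4, 2 lower and 1595 genes. CD44lo alone gave 16 members higher, 1 lower and 1726 genes. Over both groups these were 11, 2 and 3142. Leaving out each array gave 9 to 12 members higher in numbers 2 and 4, 2 lower, and 2039 (without CD44hi array 1) to 3192 genes. For the changed CD44 difference, the filter on dim genes gave 6 members, the trended robust variance 8 members and 355 genes, and leaving out each array 0 to 5 members and 9 to 399 genes. Map1lc3b turned to -0.12 for numbers 1 and 3 minus 2 and 4 when all probe sets were averaged. Of the member values under alternatives, 580 of 590 (CD44), 547 of 590 (numbers) and 457 of 491 (changed difference) kept their side of the threshold. The cause of these changes was not tested. With median centring the median of all genes for numbers 2 and 4 minus 1 and 3 went from 0.01 to -0.06.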
